A study of Homo sapiens with 12 samples.

Results

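The mRNAs of 38 genes were followed: 19 cytosolic aminoacyl-tRNA synthetases (EPRS1 and the enzymes whose symbols end in ARS1, with FARSA and FARSB for the phenylalanine enzyme), 16 mitochondrial synthetases (symbols ending in 2) and 3 proteins that hold the multisynthetase complex together (AIMP1, AIMP2 and EEF1E1). The members were taken by name from a fixed list, which was chosen with earlier results of these data known. All 38 were found among the 16172 genes of the expression table. All 38 also had a mean of at least 1 TPM (transcripts per 1000000 transcripts, a share of the library corrected for transcript length), so they were among the 10605 genes tested. The cells were H1299, an established human non-small cell lung cancer line, with 12 libraries in 4 groups of 3. Cells received either siCtrl, a control siRNA, or siEIF3G, an equimolar mix of 2 siRNAs against EIF3G, and were lysed 72 h later. Input RNA came from 10% of each lysate, and polysomal RNA from the ribosome-bound fractions of a sucrose gradient of 10% to 50%. No stable line, transgene or drug entered the design, and each siRNA gave an input group and a polysomal group. Whether replicates were separate cultures is not in the labels; p-values therefore rest on library-to-library spread that may be technical.

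Aminoacyl-tRNA synthetases join each amino acid to its tRNA and so supply the ribosome with charged tRNA. The nuclear genome encodes separate sets for the cytosol and for the mitochondrion, where charged tRNA serves the few proteins made from mitochondrial DNA; GARS1 and KARS1 each encode the enzyme of both compartments. Many cytosolic synthetase genes are known to be induced by ATF4, a transcription factor that acts in the amino acid and integrated stress responses. EIF3G, the target of the siRNAs, is a subunit of the initiation factor eIF3, which helps the small ribosomal subunit engage an mRNA.

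EIF3G itself checked the siRNA labels, but not the labels of input and polysomal RNA. It measured 1158, 1092 and 878 TPM in siCtrl input and 60.7, 84.7 and 47.3 TPM in siEIF3G input. In polysomal RNA it measured 1680, 1916 and 1803 TPM with siCtrl and 143, 132 and 69.2 TPM with siEIF3G. The log2 change was -4.03 in input RNA and -4.02 in polysomal RNA (adjusted p = 3.71e-05 and 3.76e-05, limma with Benjamini-Hochberg adjustment over all genes). The number of genes above 0 TPM ran from 13787 to 14659 per library, and read depth is unknown because TPM keep no counts. Of 6 genes listed as markers of this line, 4 (VIM, CDH2, KRT8 and KRT18) averaged at least 1 TPM, and CDH1 and EPCAM did not. VIM, a mesenchymal gene, averaged 438 to 2119 TPM in the groups. Of 12 markers of other cell types, 8 were in the table, none of them at 0 in every library, and they summed to between 1.05 and 5.99 TPM in a library.

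A set of 3 libraries stood apart and touches every result that follows. By their mean Pearson correlation over genes (not independent replicates), siCtrl input 1 (0.922 with its own group, 0.957 with the other fraction of the same siRNA), siEIF3G input 2 (0.929 and 0.958) and siEIF3G polysomal 3 (0.949 and 0.953) lay nearer to the other fraction. A single axis held 78.02% of the variance of all genes within groups. Along it the siCtrl polysomal libraries lay at 62.2, 48.8 and 96.0 and the siEIF3G polysomal libraries at 35.9, 39.9 and -26.0, so these groups did not overlap on the axis. After removal of the group means, 14 of the 38 members had a correlation with this axis below -0.9 over the 12 libraries. The share of all genes with such a correlation was not computed, so the count cannot be read as particular to the members. FARSA, SARS2 and VARS2 were the members with a correlation above 0 (0.64, 0.55 and 0.67), and VARS1 (-0.09) and AARS2 (-0.08) were nearest to 0. The part of this axis in the changes below was not tested.

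RefSeq promoter windows (GRCh38.p14, 250 bases before to 50 after the start, 45 windows) were matched for 33 of the 38 members, all but VARS1, VARS2, YARS1, LARS1 and AARS2. They were searched on both strands for TGATGCAA, whose reverse complement is TTGCATCA, the core of the element that ATF4 and C/EBP proteins are known to bind together. The letters occurred at 6 of 16 cytosolic genes, 0 of 14 mitochondrial genes and 0 of 3 partner genes, against 1.08% of all 27305 genes with a window; by windows, 6 of 21 cytosolic ones held them, against 0.866% of all 35116. A match is a description of the letters and not evidence of binding. The matches are printed because these 6 genes share them, read 5′ to 3′ on the strand of the gene, with 11 bases on each side and the match in capitals:
AARS1 (chr16:70289675-70289704, minus strand): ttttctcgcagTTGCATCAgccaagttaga
CARS1 (chr11:3057407-3057436, minus strand): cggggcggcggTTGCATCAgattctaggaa
IARS1 (chr9:92293692-92293721, minus strand): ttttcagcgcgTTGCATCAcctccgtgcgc
MARS1 (chr12:57488053-57488082, plus strand): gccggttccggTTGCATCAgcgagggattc
NARS1 (chr18:57621804-57621833, minus strand): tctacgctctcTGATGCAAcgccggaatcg
TARS1 (chr5:33440956-33440985, plus strand): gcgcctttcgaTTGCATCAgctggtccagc
NARS1 carries the letters as TGATGCAA on its own strand and the other genes carry them as TTGCATCA. With the looser TGATGNAAN, where N is any base and which includes every TGATGCAA match with a following base, 7 of 16 cytosolic genes matched (GARS1 in addition) and 1 of 14 mitochondrial genes (YARS2), against 4.45% of all genes and 3.61% of all windows.

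Cytosolic enzymes were the more abundant class. In siCtrl input RNA the 19 cytosolic genes had a median of 67.8 TPM (means of 3 libraries), from CARS1 at 18.4 to FARSA at 325 TPM, and the 16 mitochondrial genes had a median of 12.9 TPM, from LARS2 at 3.25 to VARS2 at 41.7 TPM. Over all groups EPRS1, the joint glutamate and proline enzyme, was the lowest cytosolic member at 18.2 TPM, and FARSA, the catalytic subunit of the phenylalanine enzyme, was the highest at 521 TPM. LARS2 at 2.48 TPM and VARS2 at 53.1 TPM bounded the mitochondrial class, and AIMP1 at 15.9 TPM and EEF1E1 at 129.8 TPM bounded the partners. Of the 13 amino acids with an enzyme in each class, the cytosolic mRNA had the higher mean in siCtrl input for all 13. The ratio of means ran from 1.44-fold for cysteine to 16.4-fold for leucine. In siCtrl input 1 cysteine went the other way, at 7.75 TPM for CARS1 and 10.37 TPM for CARS2.

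**Figure D1:**
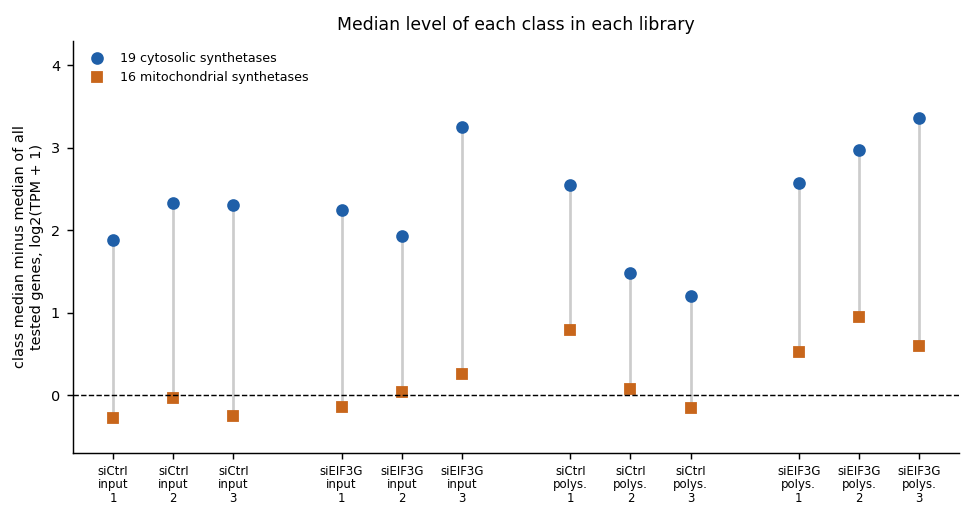
Median log2(TPM + 1) of 19 cytosolic (circles) and 16 mitochondrial (squares) synthetases in each of the 12 libraries, minus the median of all tested genes in that library (vertical axis, log2 units). The cytosolic median lies between 1.21 and 2.55 in the siCtrl polysomal libraries and lies between 2.58 and 3.36 in the siEIF3G polysomal libraries, while the mitochondrial medians of these groups overlap.

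The distance between the classes was smallest in siCtrl polysomal RNA. The cytosolic median lay above the mitochondrial one by 2.16, 2.36 and 2.56 log2 units in siCtrl input and by 2.38, 1.89 and 2.999 in siEIF3G input. In siCtrl polysomal RNA the distance was 1.76, 1.41 and 1.36, and in siEIF3G polysomal RNA it was 2.05, 2.03 and 2.75. The polysomal groups did not overlap in this distance and the input groups did. As shares of a library, the 19 cytosolic mRNAs took 0.221%, 0.129% and 0.0887% in siCtrl polysomal RNA and 0.205%, 0.268% and 0.277% in siEIF3G polysomal RNA, which do overlap. Because TPM are shares, an equal loss of all polysomal mRNA would leave them as they are, and in bulk libraries a change in some cells and a change in every cell cannot be told apart.

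In polysomal RNA, all 19 cytosolic synthetases had higher mean values after EIF3G knockdown, with log2 changes from 0.37 (FARSA) to 2.25 (TARS1) and a median of 1.66, but no member passed the test. The median of all tested genes was 0.33 and 72.65% of them were above 0, so the cytosolic median stood 1.33 above that of all genes, with all 19 above it. The 16 mitochondrial enzymes had a median of 0.59, or 0.25 above all genes, with 15 above 0 and 11 above the median of all genes. With libraries rescaled by median-of-ratios size factors, which took the median of all genes to -0.03, 18 cytosolic members were above 0 with a median of 1.23 (FARSA was at -0.17), and 10 mitochondrial members with a median of 0.26. Quantile normalization left all 19 cytosolic and 12 mitochondrial members above 0, with medians of 1.18 and 0.16. The classes also differed in level, at siCtrl polysomal medians of 23.4 TPM (cytosolic) and 7.39 TPM (mitochondrial), and the added 1 shrinks changes of low genes. With 0.1 added instead, the class medians were 1.79 and 0.83 (all genes 0.48). With 5 added they were 1.26 and 0.37 (all genes 0.16).

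No member reached an adjusted p under 0.05 in that comparison (limma; the smallest was 0.65), against 2 genes, or 0.0189%, of all genes tested. An unadjusted p under 0.05 was found for 12 cytosolic and 2 mitochondrial members, 14 of 38, against 6.69% of all genes. Without siCtrl polysomal 3 that count was 2 members (143 genes of all), without siEIF3G polysomal 3 it was 5 (288 genes), and without the 3 libraries that stood apart it was 22 (1535 genes). In 19 of 38 members, 11 of them cytosolic, 7 mitochondrial and AIMP1, every siEIF3G polysomal library was above every siCtrl one, against 21.6% of all genes, and in 0 members the groups were separate in the lower direction, against 7.61%. Without the 3 libraries that stood apart, 12 cytosolic and 8 mitochondrial members and 1 partner were separate and higher, against 25.5% of all genes. The cytosolic median without these libraries was 1.17, or 0.97 above all genes, and the mitochondrial median was 0.65, or 0.45 above. A further model added each library's deviation along the axis from its own group mean. Because that score is centred within each group, the changes stay as they are by construction and only the error shrinks. The difference between the groups along the axis was not adjusted for. In this model 14 cytosolic and 7 mitochondrial members and AIMP1 passed, all higher, against 36.4% of all genes. That axis was estimated from the same residuals, so these calls are more liberal than the others.

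**Figure D2:**
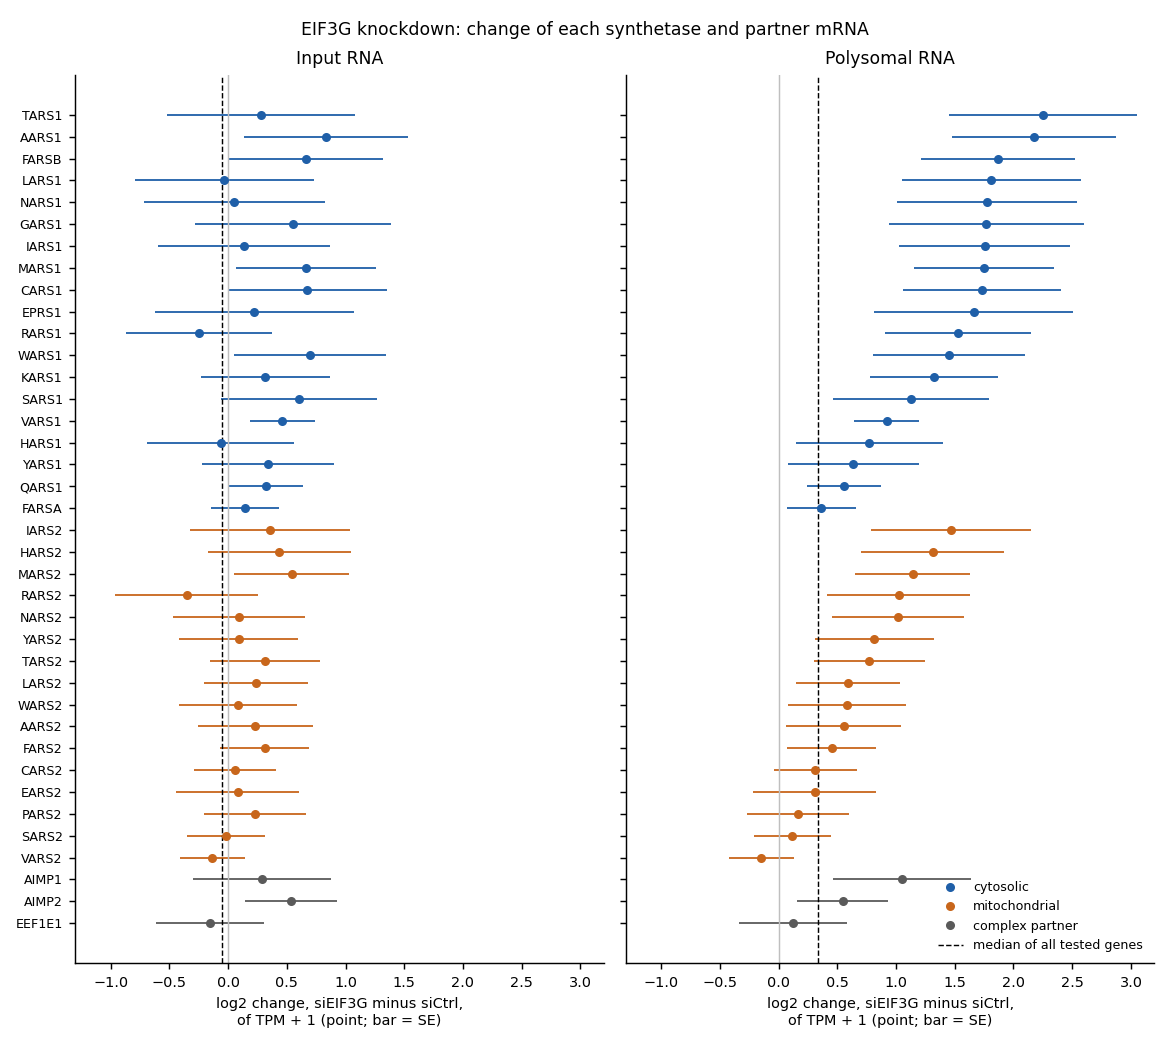
Log2 change of TPM + 1, siEIF3G minus siCtrl, for each of the 38 members in input RNA (left) and polysomal RNA (right), 3 libraries a group; bars are standard errors and the dashed line is the median of all 10605 tested genes. In polysomal RNA the 19 cytosolic points lie between 0.37 and 2.25 and the 16 mitochondrial points between -0.15 and 1.47, with wide bars.

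VARS1, the valine enzyme, had the smallest p of the members in both knockdown comparisons. It measured 275, 183 and 143 TPM in siCtrl polysomal and 319, 493 and 312 TPM in siEIF3G polysomal RNA. The knockdown libraries were all above the controls, with a log2 change of 0.92 (SE 0.28, adjusted p = 0.65, limma); with size factors the change was 0.38. AARS1, the alanine enzyme, measured 44.9, 14.3 and 10.9 TPM with siCtrl and 47.0, 110.9 and 142.6 TPM with siEIF3G. Its groups were separated only by the small gap between replicates 1, and the log2 change was 2.18 (SE 0.70, adjusted p = 0.65, limma). MARS1, which charges methionine, measured 77.8, 24.2 and 16.1 TPM with siCtrl and 85.0, 120.8 and 122.9 TPM with siEIF3G, a log2 change of 1.75 (SE 0.60). FARSB, the second subunit of the phenylalanine enzyme, measured 11.5, 11.2 and 4.98 TPM with siCtrl and 25.4, 20.7 and 76.9 TPM with siEIF3G, a log2 change of 1.87 (SE 0.66).

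TARS1, the threonine enzyme, had the largest change of any member in this comparison. It measured 13.1, 14.7 and 3.63 TPM in siCtrl polysomal and 28.8, 33.2 and 107.4 TPM in siEIF3G polysomal RNA, a log2 change of 2.25 (SE 0.80, adjusted p = 0.65, limma). The highest value came from siEIF3G polysomal 3, a library that stood apart; without the 3 such libraries the change was 1.66. FARSA was the cytosolic member nearest to the median of all genes, at 0.37 (SE 0.29), and its groups overlapped at 816, 617 and 429 TPM with siCtrl and 805, 886 and 648 TPM with siEIF3G. CARS2, which charges cysteine in mitochondria, was the mitochondrial member nearest to it, at 0.31. It measured 20.7, 9.88 and 11.04 TPM with siCtrl and 15.1, 17.3 and 17.5 TPM with siEIF3G, within the spread of the controls.

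**Figure D3:**
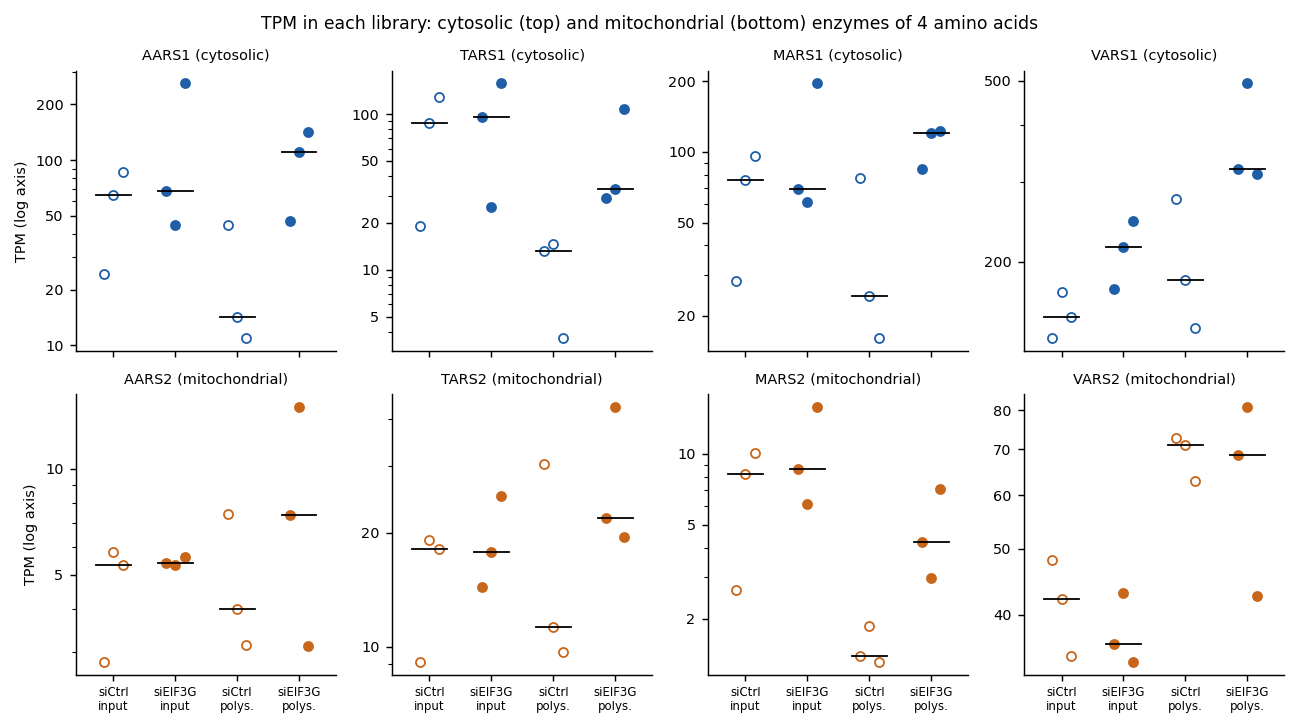
TPM on a log axis in each library for the cytosolic (top) and mitochondrial (bottom) enzymes of alanine, threonine, methionine and valine; open symbols are siCtrl, filled symbols siEIF3G, and short lines the median of 3 libraries. In polysomal RNA the siEIF3G libraries of AARS1, TARS1, MARS1, VARS1 and MARS2 all lie above the siCtrl libraries, and those of AARS2, TARS2 and VARS2 do not.

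Among mitochondrial enzymes, IARS2 (isoleucine) had the largest polysomal value, a log2 change of 1.47, followed by HARS2 (histidine) at 1.31 and MARS2 (methionine) at 1.14. MARS2 measured 1.38, 1.85 and 1.31 TPM with siCtrl and 4.24, 2.98 and 7.07 TPM with siEIF3G, so its groups were separate at low levels. VARS2 was the single member below 0, at -0.15, with 72.7, 71.0 and 62.9 TPM with siCtrl and 68.6, 80.9 and 42.7 TPM with siEIF3G. Of the partners, AIMP1 had a log2 change of 1.05, AIMP2 of 0.55 and EEF1E1, also known as AIMP3, of 0.12. The 14 members that followed the axis most closely (correlation below -0.9) had polysomal changes from 0.58 (WARS2) to 2.25 (TARS1). The 6 with a correlation between -0.3 and 0.3 (QARS1, VARS1, AARS2, CARS2, PARS2 and TARS2) had changes from 0.17 (PARS2) to 0.92 (VARS1).

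Input RNA showed smaller differences after knockdown, and no member passed the test. The cytosolic median was 0.33, or 0.38 above the median of all genes (-0.05), with 16 of 19 members above 0. The mitochondrial median was 0.16, or 0.21 above, with 13 of 16 members above 0; 42.95% of all genes were above 0. Size factors gave 17 and 14 members above 0 and quantile normalization 16 and 14, while without the 3 libraries that stood apart 16 cytosolic and 8 mitochondrial members were above 0. The direction rests on single libraries: without siCtrl input 1, 9 cytosolic and 4 mitochondrial members were above 0 (medians -0.09 and -0.12, all genes -0.39), and without siEIF3G input 3, 8 and 8 were (medians -0.05 and 0.01, all genes -0.18). In limma 0 members passed, against 0.0189% of all genes, the smallest adjusted p being 1, and 0 members had an unadjusted p under 0.05, against 1.36%. VARS1 was the single member whose knockdown libraries were all above the controls, against 1.88% of all genes, and 0 members were separate in the lower direction, against 1.8%. Without the 3 libraries that stood apart, 2 members were separate and higher, against 3.93% of all genes.

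VARS1 measured 136, 172 and 151 TPM in siCtrl input and 174, 216 and 246 TPM in siEIF3G input, a log2 change of 0.46 (SE 0.28). The gap between these groups was narrow, 172 against 174 TPM. AARS1 measured 24.3, 64.8 and 85.9 TPM with siCtrl and 67.9, 44.7 and 259.9 TPM with siEIF3G, a log2 change of 0.84 (SE 0.70) in which replicate 3 of the knockdown was far above the rest. AIMP2, MARS1 and MARS2 followed by p, with log2 changes of 0.54, 0.66 and 0.54. HARS1 at -0.06 and SARS2 (mitochondrial serine enzyme) at -0.02 were the members nearest to the median of all genes in their classes.

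The enzymes of each amino acid were set against each other within a library. Such a ratio takes out only what moves both mRNAs alike, and members of 1 amino acid can differ in their correlation with the axis: -0.95 for TARS1 and -0.30 for TARS2, -0.70 for AARS1 and -0.08 for AARS2, -0.60 for SARS1 and 0.55 for SARS2. In polysomal RNA the cytosolic change was larger than the mitochondrial one for 11 of 13 amino acids, with a median difference of 0.87 log2 units, histidine and tyrosine being the exceptions. The log2 ratio of cytosolic to mitochondrial TPM + 1 was separate and higher in the knockdown libraries for 5 amino acids (alanine, cysteine, leucine, arginine and valine) and separate and lower for 0. Without the 3 libraries that stood apart it was separate and higher for the same 5, and the median difference was 0.63. With 3 libraries against 3, the smallest p of a two-sided exact permutation test is 0.1, so no single amino acid can pass 0.05. For valine the log2 ratio was 1.90, 1.35 and 1.17 with siCtrl and 2.20, 2.59 and 2.84 with siEIF3G. For leucine it was 1.42, 2.12 and 1.13 with siCtrl and 2.12, 2.24 and 3.98 with siEIF3G, groups that meet at 2.12 to 2 decimals. LARS2 measured 1.65, 0.7 and 0.67 TPM with siCtrl and 1.98, 2.19 and 1.69 TPM with siEIF3G. At such levels the added 1 weighs on the ratio, and the plain TPM ratios of leucine overlap. How often such ratios separate for other pairs of genes was not computed.

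The remaining amino acids overlapped. Threonine had log2 ratios of -1.16, 0.35 and -1.21 with siCtrl and 0.38, -0.36 and 2.40 with siEIF3G. Its enzymes had log2 changes of 2.25 (TARS1) and 0.77 (TARS2), the highest ratio coming from siEIF3G polysomal 3. Histidine went the other way, with log2 changes of 0.77 for HARS1 and 1.31 for HARS2, whose genes lie head to head, 84 bases apart in RefSeq. In input RNA the cytosolic change was the larger for 8 of 13 amino acids, with a median difference of 0.12. There the valine ratio was separate and higher (1.48, 1.9996 and 2.09 against 2.23, 2.30 and 2.81) and the histidine ratio separate and lower (2.67, 2.37 and 2.21 against 1.68, 2.18 and 1.89).

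**Figure D4:**
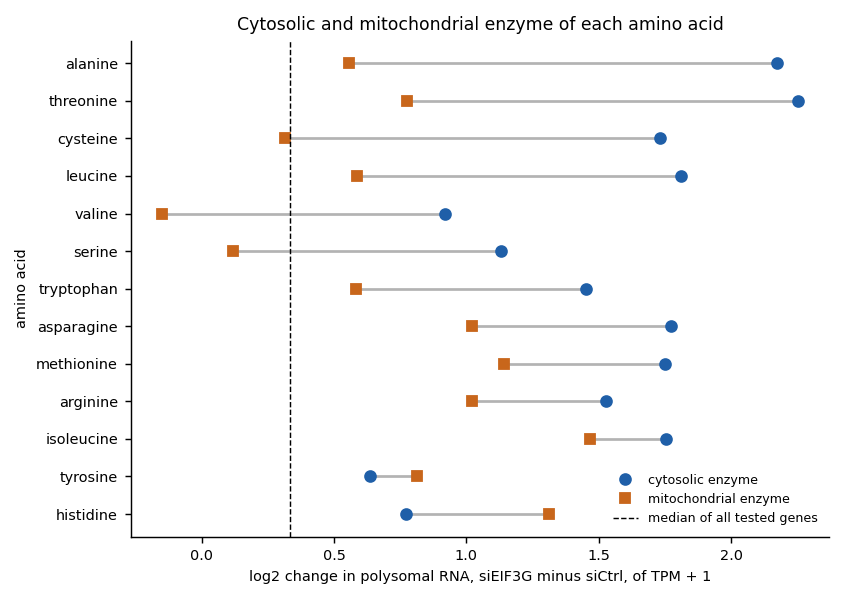
Log2 change of TPM + 1 in polysomal RNA, siEIF3G minus siCtrl, for the cytosolic (circle) and mitochondrial (square) enzyme of 13 amino acids, ordered by their difference; the dashed line is the median of all tested genes (0.33). The circle lies to the right of the square for 11 of 13 amino acids, and to the left for tyrosine and histidine.

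The change in polysome loading is the knockdown effect in polysomal RNA minus that in input RNA. It was above 0 for 36 of 38 members, against 73.87% of all genes, and above the median of all genes for 25. It passed the test for 0 members, where 0% of all genes passed. Its median was 1.09 for the cytosolic class, 0.40 for the mitochondrial class and 0.38 for all genes, so the classes stood 0.70 and 0.02 above all genes. With size factors 14 cytosolic and 8 mitochondrial members were above 0 (medians 0.58 and -0.02), and with quantile normalization 19 and 7 (0.70 and -0.02), so the mitochondrial sign depends on the scaling. RARS1 (arginine) had the smallest p, with a value of 1.78 (SE 0.88, adjusted p = 0.908, limma), followed by TARS1 at 1.97, LARS1 (leucine) at 1.84, RARS2 at 1.37 and NARS1 (asparagine) at 1.72. VARS1 at 0.46 and LARS2 at 0.35 were nearest to the median of all genes. No member had an unadjusted p under 0.05, against 0.179% of all genes; without siCtrl input 1 there were 10 (2301 genes of all), without siEIF3G input 3 or siCtrl polysomal 1 there were 2, without siEIF3G input 1 there was 1, and without the 3 libraries that stood apart 5 (750 genes). With the axis in the model 6 cytosolic and 3 mitochondrial members passed, against 18% of all genes.

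RARS1 shows how the fractions enter this value. It measured 32.0, 87.4 and 139 TPM in siCtrl input and 100.2, 23.4 and 97.3 TPM in siEIF3G input, which overlap widely. In polysomal RNA it measured 29.5, 31.4 and 11.9 TPM with siCtrl and 47.0, 63.1 and 98.6 TPM with siEIF3G, which are separate. LARS1 had the same form, with 12.4, 59.7 and 87.4 against 58.6, 13.1 and 79.0 TPM in input, and 6.11, 6.38 and 2.65 against 11.98, 14.1 and 41.3 TPM in polysomal RNA. The low input values of these genes, 32.0 and 12.4 TPM with siCtrl and 23.4 and 13.1 TPM with siEIF3G, belong to siCtrl input 1 and siEIF3G input 2, which stood apart.

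Polysomal against input RNA within control cells was the comparison in which members passed the test. Of 38 members, 1 was higher and 10 were lower in polysomal RNA, 11 in all, against 36.9% of all genes (846 higher and 3066 lower), so the members' share is below that of all genes. The lower members were LARS1, EPRS1, TARS1, IARS1, FARSB, NARS1, GARS1, MARS2, NARS2 and EEF1E1, and the higher one was FARSA. The cytosolic median was -1.305 and the mitochondrial one -0.38, where the median of all genes was -0.96 and 28.84% of all genes were above 0. Relative to all genes the cytosolic class thus stood at -0.34 and the mitochondrial class at 0.59. Size factors moved the cytosolic median to -0.23 and turned the mitochondrial one to 0.69 (all genes -0.04), and quantile normalization gave -1.099 and 0.52 (all genes -0.09). In 3 members (FARSA, SARS2 and VARS2) every polysomal library was above every input library, against 16.9% of all genes, and in 12 members every one was below, against 28.9%.

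LARS1 had the smallest p here. Its input and polysomal values in control cells, given above, were separate, and the log2 difference was -2.85 (SE 0.76, adjusted p = 0.0297, limma). EPRS1 measured 5.90, 30.2 and 46.0 TPM in siCtrl input and 1.91, 2.94 and 1.16 TPM in siCtrl polysomal RNA, a log2 difference of -2.89 (adjusted p = 0.0358). TARS1 and IARS1, the isoleucine enzyme, differed by -2.60 and -2.31 (adjusted p = 0.039 and 0.0403). These 4 also passed and were lower with size factors (-1.79, -1.94, -1.50 and -1.23 for LARS1, EPRS1, TARS1 and IARS1) and with quantile normalization (-2.24, -2.02, -2.17 and -1.77). WARS1 (tryptophan), at -0.94, and LARS2, at -0.97, were nearest to the median of all genes.

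The 2 subunits of the cytosolic phenylalanine enzyme went in opposite directions. FARSA measured 423, 302 and 250.4 TPM in siCtrl input and 816, 617 and 429 TPM in siCtrl polysomal RNA, a log2 difference of 0.92 (SE 0.29, adjusted p = 0.0407, limma). FARSB measured 15.0, 53.9 and 71.3 TPM in siCtrl input and 11.5, 11.2 and 4.98 TPM in siCtrl polysomal RNA, a log2 difference of -2.04 (SE 0.66, adjusted p = 0.0411). Both directions held under size factors (2.09 and -0.93) and quantile normalization (0.67 and -1.52), where FARSB with size factors and FARSA with quantile normalization did not pass (adjusted p = 0.077 and 0.0851, limma). In siEIF3G cells the polysomal minus input difference was 1.14 for FARSA and -0.83 for FARSB.

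How many members pass in control cells depends on the scaling and on single libraries. Size factors gave 10 higher and 4 lower members (all genes 2835 higher and 1723 lower), and quantile normalization gave 2 higher and 8 lower (1657 and 1243). The members called with size factors include VARS1 and AIMP2, both higher, at 1.51 and 1.82. Without siCtrl input 1 there were 24 called members, against 67.9% of all genes, and without siEIF3G input 2 there were 18, against 54.5%. Leaving out siCtrl input 2, siCtrl input 3 or any of the 3 siCtrl polysomal libraries left 0 members, against 1.22% to 2.54% of all genes. Leaving out siEIF3G polysomal 1 left 1, against 10.3%, and leaving out siEIF3G polysomal 2 left 2, against 14.5%. The members' counts thus rose and fell with those of all genes. Without the 3 libraries that stood apart, 3 members were higher and 23 lower, against 75.3% of all genes.

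**Figure D5:**
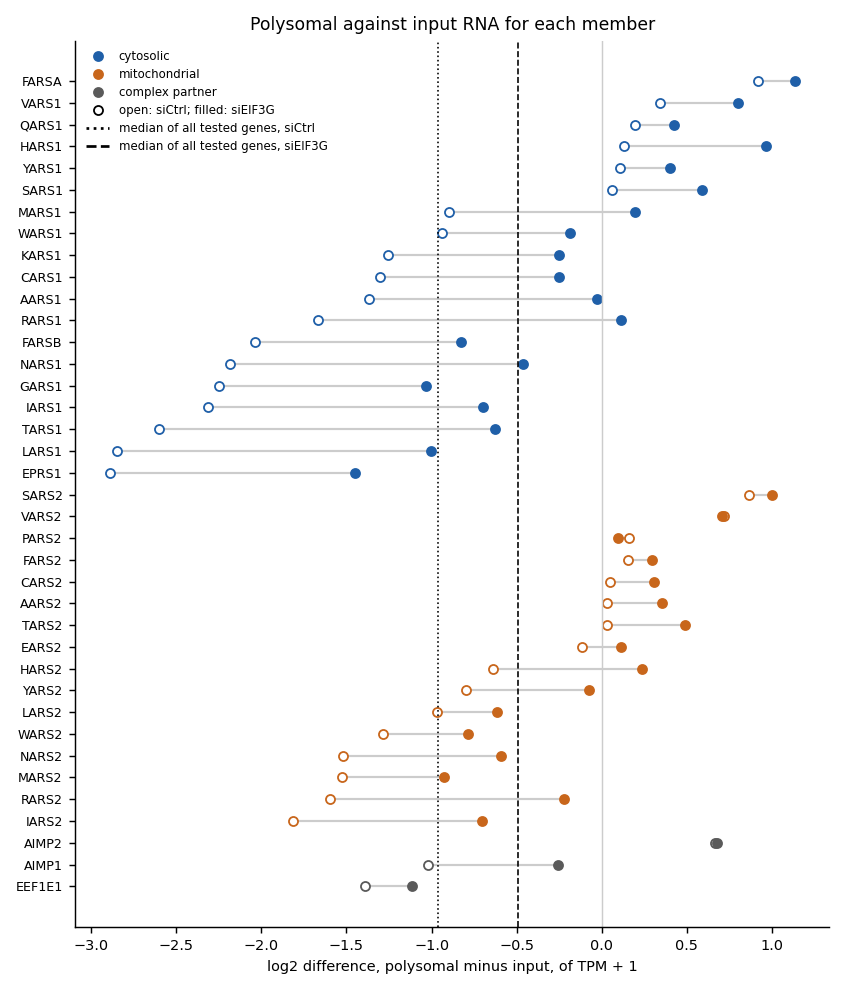
Log2 difference of TPM + 1, polysomal minus input RNA, of each member in siCtrl (open) and siEIF3G cells (filled), group means of 3 libraries; vertical lines are the medians of all tested genes (-0.96 and -0.49). The lowest open symbols are EPRS1 (-2.89) and LARS1 (-2.85), and FARSA is the highest in both kinds of cells (0.92 and 1.14).

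In knockdown cells the same comparison called 0 of 38 members, against 3.14% of all genes, and 5 members had an unadjusted p under 0.05, against 20.5% of all genes. The cytosolic median was -0.19 and the mitochondrial one 0.10, where that of all genes was -0.49; the cytosolic median was 0.40 with size factors, -0.24 with quantile normalization, 0.43 without siEIF3G input 3 and 0.07 without siEIF3G polysomal 1. The mitochondrial median was 0.63 with size factors, 0.57 with quantile normalization, -0.14 without siEIF3G input 2 and -0.09 without siEIF3G polysomal 2. FARSA had the smallest p, at 1.14 (SE 0.29, adjusted p = 0.0533, limma), followed by SARS2 at 1.00, VARS1 at 0.80, VARS2 at 0.70 and EEF1E1 at -1.12. FARSA measured 339, 468 and 273 TPM in siEIF3G input and 805, 886 and 648 TPM in siEIF3G polysomal RNA, so all polysomal values were higher. FARSA, VARS1 and AIMP2 were the 3 members with separate groups and higher polysomal values, against 9.4% of all genes, and 0 were separate and lower, against 12.7%. NARS1 at -0.46 and NARS2 at -0.59 were nearest to the median of all genes. Without the 3 libraries that stood apart, 4 members were higher and 14 lower, against 71.3% of all genes.

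The 13 synthetases listed from textbook accounts as ATF4-responsive had a median polysomal knockdown change of 1.75, or 1.42 above all genes, with 13 above 0; the other 6 cytosolic members had a median of 1.05. In input RNA the 13 had a median of 0.46 with 12 above 0, against 42.95% of all genes. The 7 synthetases held in the multisynthetase complex had a polysomal median of 1.66, with 7 above 0, against 72.65% of all genes. The 6 genes with TGATGCAA in the promoter window, printed above, had polysomal changes from 1.73 (CARS1) to 2.25 (TARS1) with a median of 1.77. The 10 cytosolic genes with a window and no match ranged from 0.37 (FARSA) to 1.87 (FARSB), with a median of 1.39. Over all tested genes the 59 with a match had a median of 0.49 and the 8663 without had 0.34, and in input RNA 0.03 and -0.05. None of these members passed the test in either knockdown comparison.

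The wider pathway gave no call in the knockdown comparisons either (limma, 0 genes of each list). Of 18 tested ATF4 pathway genes that are not synthetases, 16 were above 0 in polysomal RNA (median 0.70) and 15 in input RNA (median 0.50). Of all tested genes 72.65% and 42.95% were above 0 there, with medians of 0.33 and -0.05. Below 0 in polysomal RNA were CHAC1 at -0.83, which was also at -0.34 in input RNA, and ATF5 at -0.07. ATF4 itself had log2 changes of 0.53 in input and 0.70 in polysomal RNA. In polysome loading 12 of the 18 lay below the median of all genes, with a list median of 0.19. The cytosolic synthetases had a median of 1.09 there, and the difference between the lists was not tested. DDIT3, a stress-induced transcription factor, measured 14.9, 36.7 and 44.5 TPM in siCtrl input and 56.6, 40.5 and 229.4 TPM in siEIF3G input; in polysomal RNA it measured 14.6, 14.6 and 15.9 against 29.5, 35.2 and 116.6 TPM. Its log2 changes were 1.45 and 1.66 (adjusted p = 1 and 0.65, limma), and the polysomal groups were separate. ASNS, asparagine synthetase and a standard ATF4 target, had a polysomal change of 2.09, with 31.0, 16.2 and 7.7 TPM with siCtrl and 30.5, 34.7 and 326 TPM with siEIF3G, so its groups overlapped and siEIF3G polysomal 3 carried most of the change. PHGDH and SHMT2, enzymes of serine and one-carbon metabolism, had log2 changes of 0.89 and 0.67.

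Amino acid transporters had 9 of 11 tested genes above 0 in polysomal RNA, with a median of 0.62; SLC38A2, a carrier of small neutral amino acids, had 1.52, SLC7A1 0.90, SLC3A2 0.85 and SLC1A5 0.62. Partners of tRNA charging and proofreading had 13 of 14 above 0 with a median of 0.49, among them GATB and QRSL1, subunits of the mitochondrial glutamine amidotransferase, at 0.90 and 0.93. Factors that carry charged tRNA to the ribosome had 10 of 11 above 0 with a median of 0.56. EEF1A1, the main carrier in the cytosol, had 1.55, and MTIF2, a mitochondrial initiation factor, had 1.32. Genes of mitochondrial tRNA processing and modification had 13 of 15 above 0 with a median of 0.59, close to the 0.59 of the mitochondrial synthetases; ELAC2, which trims tRNA ends, had 1.07 and TRMT10C, a subunit of mitochondrial RNase P, had 0.87. Of all tested genes 72.65% were above 0 in polysomal RNA, with a median of 0.33, so counts above 0 alone do not set these lists apart. Above that median lay 7 of 11, 11 of 14, 7 of 11 and 9 of 15 genes of these 4 lists, in the order given. In input RNA the same 4 lists had medians of 0.21, -0.03, 0.16 and 0.06, where that of all genes was -0.05.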

How the data were processed

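RNA sequencing of input and polysomal RNA from H1299 cells was deposited as TPM per gene and library, which the authors computed. RSEM 1.3.1 and GRCh38.p13 are named per the submitters' processing notes; for the aligner, annotation and filters, the sources used here name nothing. Each library sums to 1000000 TPM within 0.54, so depth is unknown and no counting interval can be given. Values were analysed as log2(TPM + 1), which understates changes of low genes. The filter kept genes averaging 1 TPM or more (10605 of 16172; 5567 set aside). A model of 4 group means was fitted in limma 3.58.1 (R 4.3.3, with trend, 8 residual degrees of freedom). Benjamini-Hochberg adjustment ran over all genes of each of 5 comparisons, with a threshold of 0.05. The procedure was tested on simulated data with noise drawn separately for each gene and library. That simulation holds no shared axis and no libraries that stand apart, so it does not speak to their effect on the calls. Named members are, per comparison, the 5 with the smallest p and the member of each class nearest to the median of all genes, plus members of lowest and highest level, the largest differences within an amino acid, and up to 4 genes of each other list; members named beyond these complete a count or a range and were chosen after their values were seen. Members and lists were chosen with earlier results of these data known. Alternatives covered pseudocount, filter, scaling, moderation, a replicate block, the axis, and libraries left out; the counts of separate groups and ratios without the 3 libraries that stood apart were added after seeing the data.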

Additional observations from a re-analysis of the deposited data

How the results depend on the processing

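TPM are shares with unknown depth, 3 libraries a group limit every test, and 3 libraries stood apart; no cause of the differences below was tested. The labels do not say whether replicate numbers pair the libraries. Correlations of deviations were mixed (18 same-numbered pairs, from -0.689 to 0.712, 6 over 0.1). They do not settle the pairing, because a single axis held most of the variance within groups. With the replicate block 2121 genes were called for polysomal against input RNA in control cells and 1 member (FARSA) in knockdown cells. No member reversed a called direction under any of the 24 settings beside the reported one (4106 member values the same, 134 moved, 140 stronger, 132 weaker, 0 reversed). A value called in neither fit counted as the same if it moved by less than its SE, even where its sign changed. Reversal needed a call. Moderation settings, the block, the axis, and leaving out a library of a group not compared keep the changes as they are by construction. The tally is therefore no measure of stability. Genes called in input knockdown numbered 1 with size factors, without the trend and with only the groups compared, 28 with the axis and 5 without the 3 libraries. In polysomal knockdown they numbered 1 with size factors, quantile normalization, no trend and only the groups compared, 3855 with the axis (22 members) and 4 without the 3 libraries. For loading the axis gave 1912 genes and 9 members. In control cells, polysomal against input, they numbered 1408 with a pseudocount of 5 (1 member), 1249 with no filter (0 members), 7878 with the axis (23), 8100 without the 3 libraries (26) and 608 with only the groups compared (1). In knockdown cells they numbered 47 with size factors, 149 without the trend, 6496 with the axis (15 members), 7668 without the 3 libraries (18) and 78 with only the groups compared; a minimum of 5 TPM called 1 member.

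Class medians relative to all genes moved by more than the replicate spread (SD 0.547 cytosolic, 0.296 mitochondrial) in control cells, polysomal against input: cytosolic -0.991 with no filter and -1.013 with quantile normalization, mitochondrial 0.255 with a pseudocount of 5 and -0.063 with no filter; in knockdown cells mitochondrial 0.285 with no filter. Leaving out each library in turn gave cytosolic medians of 0.127 (without siEIF3G input 3) to 0.666 (without siEIF3G input 2) in input knockdown, 0.964 (without siEIF3G polysomal 3) to 1.548 (without siCtrl polysomal 1) in polysomal knockdown, 0.339 (without siCtrl polysomal 3) to 1.127 (without siEIF3G input 3) for loading, -0.855 (without siCtrl polysomal 1) to 0.052 (without siCtrl polysomal 3) in control cells and 0.067 to 0.753 (without siEIF3G input 1 and 3) in knockdown cells. The mitochondrial ranges, in the same order, were 0.164 to 0.28, 0.083 to 0.486, -0.201 to 0.186, 0.183 (without siCtrl polysomal 1) to 0.835 and 0.324 to 0.816. Called genes ranged from 1 to 2 in each knockdown comparison, 0 to 0 for loading, 130 (without siCtrl polysomal 2) to 7239 (without siCtrl input 1) in control cells and 44 (without siEIF3G polysomal 1) to 784 (without siCtrl input 1 or siEIF3G polysomal 3) in knockdown cells. Called members ranged from 0 to 0 for both knockdown comparisons and loading, 0 to 24 in control cells and 0 to 3 (without siEIF3G polysomal 3) in knockdown cells. Dropping GARS1 and KARS1, which serve both compartments, left the cytosolic medians within 0.547 of the reported values.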
